A study of Mus musculus with 12 samples.

Results

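The genes described here are the clustered replication histone genes, taken as every protein-coding row of the deposited count table whose symbol starts with Hist1h, Hist2h, Hist3h or Hist4. The rule found 68 of the 49585 genes: 6 H1, 19 H2A, 18 H2B, 12 H3 and 13 H4 genes. Of these, 55 lie on chromosome 13, 10 on chromosome 3, 2 on chromosome 11 and 1 on chromosome 6. The study measured poly(A)-selected RNA from whole lung of C57BL/6J mice that carried an MO4 melanoma under the skin, in 12 libraries, 3 in each of 4 groups. Mice of 22 months were given both anti-PD-1 and an anti-IL-21 receptor antibody (combination group), anti-PD-1 on its own (the aged anti-PD-1 group), or else a rat control antibody of matched isotype (aged control group), all into the peritoneum. Mice of 2 months were given anti-PD-1 (young anti-PD-1 group). The labels place the anti-PD-1 and control injections at days 3, 7 and 11 after inoculation of the tumour. The days of the second antibody are not given in the sources used here, and young mice without anti-PD-1 were not analysed here, so the age comparison is one between mice that all received anti-PD-1.

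Replication histones package newly made DNA, and most of their genes are transcribed in S phase from shared clusters. Core histones H2A, H2B, H3 and H4 form the nucleosome, and H1 binds the linker DNA between nucleosomes. Their mRNAs are the known exception to polyadenylation: most end just after a conserved stem-loop that is bound by the stem-loop binding protein SLBP, while some histone genes also give polyadenylated transcripts from signals further downstream, chiefly in cells that have left the cycle. A library made from poly(A)-selected RNA therefore holds only the part of histone mRNA that was carried through that selection.

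The stem-loop was looked for in the GENCODE M21 transcripts (GRCm38) as the letters GG, any 3, TT, any 1, T, any 1, A, any 3 and CC within 100 bases after the stop codon, on the strand of the gene. It was found in 44 of the 65 histone genes with a stop codon in their transcript, against 59 of 21019 other protein-coding genes (0.281%). The following windows are shown because they belong to the most abundant H1 gene and to genes whose levels differed between groups. Capitals mark the stem-loop and coordinates are those of the capitals.
Hist1h1c (chr13:23739512-23739527, + strand): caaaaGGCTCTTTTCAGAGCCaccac
Hist1h1e (chr13:23621782-23621797, - strand): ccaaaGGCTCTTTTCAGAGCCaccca
Hist1h4c (chr13:23698089-23698104, - strand): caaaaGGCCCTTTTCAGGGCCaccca
Hist1h4i (chr13:22040966-22040981, - strand): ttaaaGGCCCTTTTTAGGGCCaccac
Hist1h4m (chr13:21812129-21812144, + strand): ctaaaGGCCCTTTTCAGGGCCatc

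The stem letters differed by histone type. The form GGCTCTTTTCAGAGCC stood in 24 genes of types H1, H2A, H2B and H3, and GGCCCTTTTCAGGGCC stood in 7 genes, all H4. Hist1h4i and 1 other H4 gene (Hist2h4) carried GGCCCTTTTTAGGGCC. Genes were also grouped by where the annotated gene model ends. The 12 genes whose model extends past the stem-loop held 70.3% of all histone counts over the 12 libraries, and Hist1h1c alone held 65.7%. The 5 spliced models held 21.6%, and Hist1h2bc alone held 20.2%. The 30 models that end within 100 bases of the stem-loop held 5.84%, and the 18 that end at or near the stop codon held 0.974%. Longer models collect more reads for their length alone, so levels per length are given next.

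Per kilobase of counted exon, Hist1h1c had the highest level of the 68 genes, with 233 CPM per kb on average over the 12 libraries. Hist1h2bc followed with 151, and then came a gap of about an order of magnitude to Hist1h4i with 15.4. Hist1h1e had 10.4, Hist1h4h 9.64, Hist1h4m 8.11, Hist1h4c 4.54 and Hist1h1d 4.46 CPM per kb. The leading H2A gene was Hist3h2a with 4.28, and the leading H3 genes, Hist1h3i, Hist1h3a and Hist2h3c2, lay between 1.45 and 1.96 CPM per kb. By class of model, the median was 0.611 CPM per kb for the 12 that extend past the stem-loop and 1.03 for the 30 that end near it, so the high share of the longer models rests on Hist1h1c. H1 and H2B were led by 1 gene each, while no H2A or H3 gene reached 5 CPM per kb. By type, H1 took 68.0%, H2B 23.9%, H4 4.56%, H2A 2.60% and H3 0.993% of the histone counts.

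**Figure D1:**
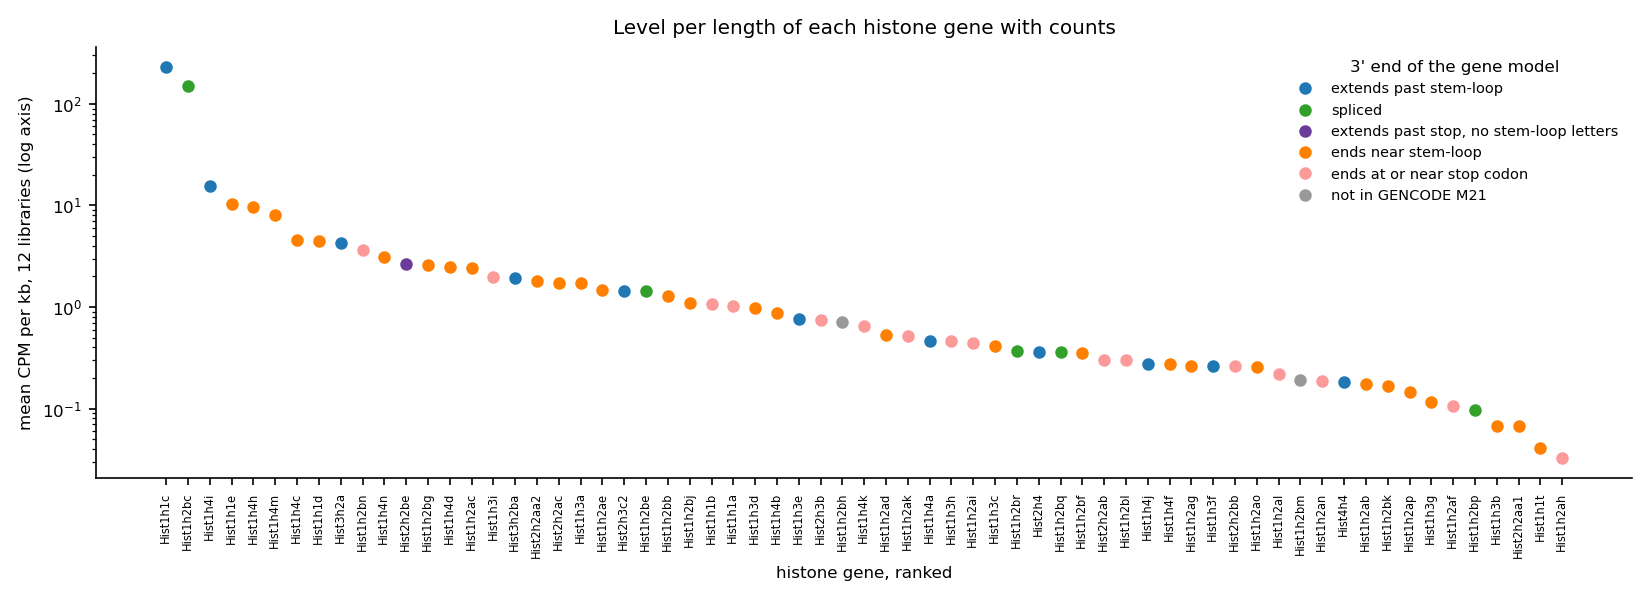
Mean level of each histone gene with counts, in CPM per kilobase of counted exon over 12 libraries on a log axis, ranked along the x axis; colours mark the 3′ end of the gene model. Hist1h1c (233) and Hist1h2bc (151) stand above the rest, and the third gene is Hist1h4i (15.4).

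At the other end, 3 genes had no count in any library: Hist1h2aa and Hist1h2ba, which are known as testis histone genes, and Hist2h3c1. A count of 0 allows up to 3 counts per library, or 0.136 to 0.187 CPM, and covers counting error only. For Hist2h3c1 all 50-base words of the annotated model also occur in an overlapping model, Gm20634, so its 0 does not show that the gene is silent. The testis H1 gene Hist1h1t had 7 counts in all. Filtering on low counts left 34 of the 68 genes for testing, namely 5 H1, 5 H2A, 10 H2B, 6 H3 and 8 H4 genes. The other 34 reached at most 14 counts in any library. Only 8 genes had 1000 or more counts in total.

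Many of these genes are near copies of each other, which limits what a count can say. The coding sequences of Hist1h4m and Hist1h4n are identical, as are those of Hist1h2ao and Hist1h2ap, Hist2h2aa1 and Hist2h2aa2, and Hist2h3c1 and Hist2h3c2. Across H4, pairs of coding sequences of equal length matched at a median of 93.9% of positions, across H3 at 97.2%, across H2A at 96.4% and across H2B at 94.8%. H1 genes differ more: a median of 4.27% of their 50-base words occur in another gene, against 78.9% for H2A. The counts of Hist1h2bq, at 8, 6 and 9 in combination, 12, 36 and 8 in aged anti-PD-1 libraries, and 35, 15 and 15 in those of aged controls, show the problem. Its neighbour Hist1h2br had 1, 27 and 20, then 23, 9 and 16, then 2, 37 and 36 counts in the same groups. In the aged anti-PD-1 and the aged control group alike, the library with the most Hist1h2bq counts had the fewest of Hist1h2br, so both are uncertain. How the authors treated reads with several matches is not given in the sources used here.

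Total counts per library ran from 16021877 to 22058620, and histone genes gave 8368 to 14381 of them. The lung surfactant gene Sftpc (9465 to 17990 CPM) and the club cell gene Scgb1a1 (12760 to 25490 CPM) were high in all 12 libraries, while the pigment cell genes Mlana (1.23 to 4.31 CPM) and Dct (0 to 0.735 CPM) were low. Combination libraries 2 and 3 stood apart, with 3105 and 4802 CPM in genes of rRNA biotype against 404 to 698 CPM in the other 10 libraries. The labels do not say whether the 3 libraries of a group are from different mice. The p-values then reflect just the spread among these samples, and that spread may be technical. CPM values are scaled by TMM factors, fold changes are log2 values ± SE from 1 edgeR quasi-likelihood fit to all 12 libraries, and a gene is called where its adjusted p (Benjamini-Hochberg over 18556 genes) is under 0.05.

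Summed over all 68 genes, histone levels were 487, 599 and 601 CPM in combination libraries, 459.8, 423 and 417 in aged anti-PD-1 libraries, 747, 725 and 681 in aged control, and 387, 494 and 611 in young anti-PD-1 libraries. The aged control libraries were the highest and did not overlap any other group, and the aged anti-PD-1 libraries lay below the other aged groups. The place of the aged control group rests on Hist1h1c and Hist1h2bc. Without these 2 genes the sums were 74.4 to 89.7 CPM in combination, 65.5 to 74.2 in aged anti-PD-1, 74.5 to 104 in aged control and 60.8 to 77.6 in young anti-PD-1 libraries. The aged control libraries then overlapped the combination and the young ones. The aged anti-PD-1 libraries still lay below the other aged groups, but by a narrow margin. In bulk tissue, fewer cells of a type and less RNA per cell cannot be told apart. The H1 sum, nearly all of it Hist1h1c, ran from 342 to 404 CPM in combination, 244 to 303 in aged anti-PD-1, 486 to 524 in aged control and 262 to 462 in young anti-PD-1 libraries. The H4 sum followed another order, with 19.3 to 34.0, 23.3 to 26.9, 30.3 to 37.7 and 14.6 to 16.6 CPM in the same groups, so the young libraries lay below all 9 aged ones. Without Hist1h4i the H4 sums were 11.3 to 17.3, 13.3 to 14.2, 14.4 to 20.6 and 9.70 to 12.6 CPM. The young libraries then overlapped the combination ones through combination library 1 (11.3 CPM). They still lay below all aged anti-PD-1 and all aged control libraries, so only the separation from the combination group rests on Hist1h4i. Of the 8 tested H4 genes, 4 had a negative fold change in aged against young anti-PD-1 lungs. The H2B sum was 106 to 152, 117 to 127, 145 to 197 and 92.2 to 115 CPM. H2A sums overlapped in all 4 groups, with 11.5 to 17.8 CPM over the 12 libraries, and H3 sums lay between 3.92 and 9.92 CPM.

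**Figure D2:**
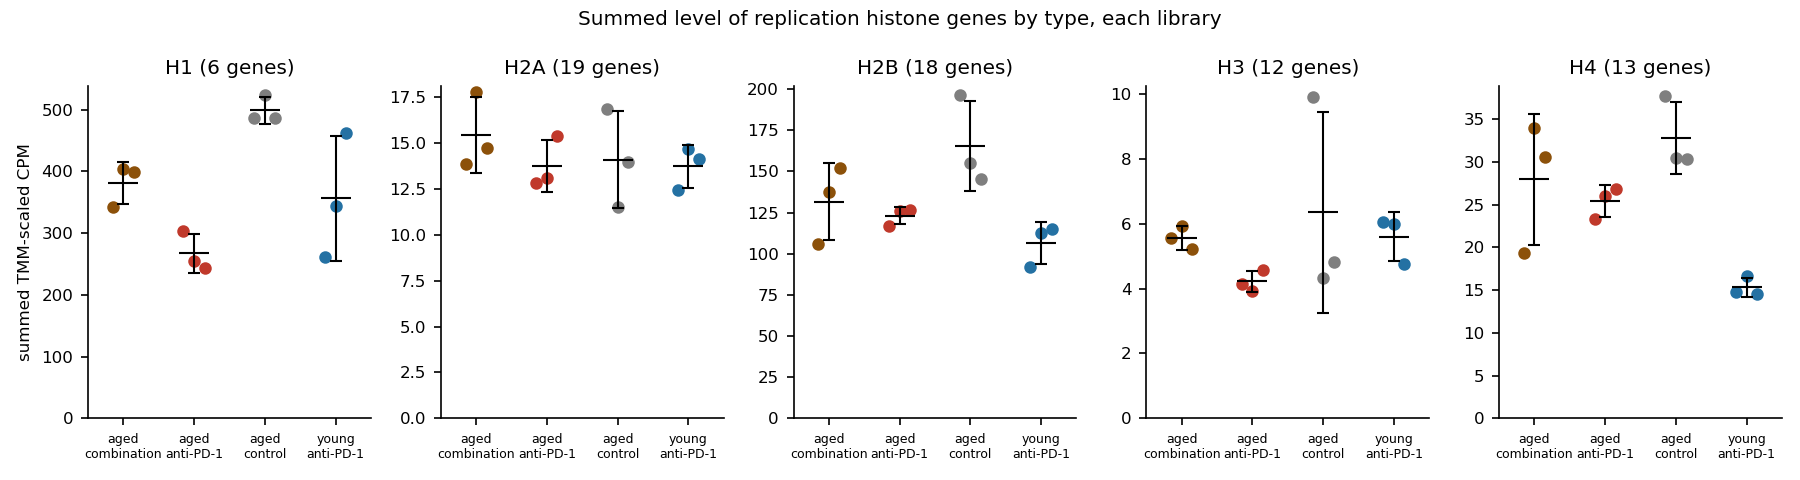
Summed TMM-scaled CPM of the genes of each histone type; dots are libraries, and bars give the mean ± SD of 3 libraries. H1 is lowest in the aged anti-PD-1 group among aged mice (244 to 303 CPM), and H4 is lowest in the young group (14.6 to 16.6 CPM).

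The first comparison asks how the aged and the young lung differ when both received anti-PD-1. Higher in aged anti-PD-1 than in young anti-PD-1 lungs were the H4 genes Hist1h4i and Hist1h4m and the H2B genes Hist1h2be and Hist1h2bn. The linker histone gene Hist1h1e and the H2B gene Hist2h2be were lower. These 6 of 34 tested genes are 17.6%, near the 15.3% of all genes called in this comparison (8.09% higher and 7.16% lower), so the count is not a result about histone genes as a set. Groups did not overlap for 15 of the 34 (39.6% of all genes), 10 with the aged libraries above (19.7%) and 5 with them below (19.9%). The median log2 fold change was -0.23 over the 34 histone genes and -0.0069 over all genes tested, and it was 0.01 over the 17 histone genes with a mean CPM of at least 1.

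Hist1h4i had 9.996, 11.8 and 12.9 CPM in aged anti-PD-1 and 4.61, 4.05 and 4.85 CPM in young anti-PD-1 libraries. Every aged library was above every young one. The fold change was 1.36 ± 0.22 (adjusted p = 0.0018). Hist1h4m had 3.36, 5.38 and 4.64 CPM in aged and 1.37, 2.05 and 1.08 CPM in young libraries, with a fold change of 1.57 ± 0.32 (adjusted p = 0.00686). The 2 groups did not overlap in either gene. Hist1h4n, the copy of Hist1h4m, had 1.22, 1.31 and 1.70 against 0.456, 1.05 and 0.490 CPM and was not called (1.08 ± 0.39, adjusted p = 0.0816). Summed, Hist1h4m and Hist1h4n gave 4.58 to 6.69 CPM in aged and 1.57 to 3.10 CPM in young libraries. The sum does not depend on how counted reads were divided between the pair. Both also share 50-base words with Hist1h4i, 121 of 353 in Hist1h4m and 130 of 381 in Hist1h4n. In Hist1h4i 28.9% of words occur in other genes. The sum does not resolve reads shared with Hist1h4i or reads left out for several matches. Hist1h4i and Hist1h4m may therefore not be fully separate results. Not all H4 genes pointed the same way: Hist1h4c, at 1.18, 1.11 and 1.05 against 1.69, 1.801 and 1.96 CPM, had a fold change of -0.71 ± 0.26 (adjusted p = 0.0807).

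The promoters of the 4 genes that were higher are shown because all 4 were called higher in this comparison. They are the RefSeq windows on GRCm38.p6, from 250 bases before to 50 after the start. Capitals mark GGTCCG, part of the H4 promoter element, and TATAAA in the H4 windows, and ATTTGCAT (the octamer), CCAAT and TATAAA in the H2B windows, each on either strand.
Hist1h4i (chr13:22041313-22041612, - strand): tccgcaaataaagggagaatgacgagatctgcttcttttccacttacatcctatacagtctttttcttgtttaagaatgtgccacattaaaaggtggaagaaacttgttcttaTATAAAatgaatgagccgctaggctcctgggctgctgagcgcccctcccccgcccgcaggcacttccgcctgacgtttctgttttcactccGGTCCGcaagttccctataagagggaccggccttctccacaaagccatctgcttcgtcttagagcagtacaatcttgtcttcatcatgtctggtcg
Hist1h4m (chr13:21811496-21811795, + strand): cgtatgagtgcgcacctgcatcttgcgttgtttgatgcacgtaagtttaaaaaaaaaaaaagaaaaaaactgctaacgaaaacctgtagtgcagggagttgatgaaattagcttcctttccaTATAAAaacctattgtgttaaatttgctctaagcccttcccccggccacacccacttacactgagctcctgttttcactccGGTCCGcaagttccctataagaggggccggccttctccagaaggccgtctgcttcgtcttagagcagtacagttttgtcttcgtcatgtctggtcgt
Hist1h2be (chr13:23585921-23586220, - strand): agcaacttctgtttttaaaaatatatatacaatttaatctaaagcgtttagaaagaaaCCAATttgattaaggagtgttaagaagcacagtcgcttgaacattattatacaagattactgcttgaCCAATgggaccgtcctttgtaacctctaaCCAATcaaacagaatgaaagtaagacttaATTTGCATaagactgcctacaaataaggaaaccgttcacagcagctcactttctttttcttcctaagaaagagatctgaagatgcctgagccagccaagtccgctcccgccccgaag
Hist1h2bn (chr13:21753826-21754125, + strand): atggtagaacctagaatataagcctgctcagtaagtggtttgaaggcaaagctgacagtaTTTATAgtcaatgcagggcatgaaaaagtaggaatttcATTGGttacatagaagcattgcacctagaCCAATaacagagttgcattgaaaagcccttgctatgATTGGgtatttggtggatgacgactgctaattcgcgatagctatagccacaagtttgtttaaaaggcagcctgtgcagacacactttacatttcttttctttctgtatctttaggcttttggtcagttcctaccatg

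Hist1h2be has a second RefSeq window, without the octamer letters. The windows of Hist1h4i and Hist1h4m share a run of 38 letters around GGTCCG. Promoter windows were matched for 60 of the 68 genes, and letters were searched on both strands of each. GGTCCG stood in 11 of 12 H4 windows, including those of H4 genes that were not called, in 1 of 10 H3 windows and in none of H1, H2A or H2B, against 9.44% of all 27025 genes with a window. The octamer was found in 7 of 18 H2A and 6 of 14 H2B genes, in no gene of the other types, and in 1.97% of all genes. CCAAT stood in all 48 matched genes of H1, H2A, H2B and H3 and in 3 of 12 H4 genes, against 41.1% of all genes. AAACACA, the letters of the H1 element, stood in 5 of 6 H1 genes against 8.22% of all genes, and TATAAA in 35 of 60 histone genes against 15.7%. Within H4 these letters therefore do not separate the genes that were higher in aged lungs from those that were not, and a match is a description of the window only.

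The H2B genes split in both directions. Hist1h2be, a spliced model, had 6.13, 6.28 and 7.88 CPM in aged anti-PD-1 and 3.47, 4.55 and 3.72 CPM in young libraries (0.79 ± 0.18, adjusted p = 0.0127). Hist1h2bn had 1.76, 1.96 and 2.44 against 0.913, 0.650 and 0.343 CPM (1.67 ± 0.40, adjusted p = 0.0144). Both were higher in all 3 aged libraries than in any young one. Hist2h2be, whose model extends well past the stop codon, went the other way, with 5.38, 6.69 and 6.73 CPM in aged and 9.04, 10.4 and 9.51 CPM in young libraries (-0.62 ± 0.16, adjusted p = 0.0200). Hist1h2bc, the most abundant H2B gene, had 98.8, 105 and 105 CPM in aged and 74.6, 92.0 and 96.8 CPM in young libraries and was not called, although the groups did not overlap (0.23 ± 0.16, adjusted p = 0.362). In Hist1h2bn 86.4% of 50-base words occur in other genes, while in Hist2h2be none do, so the first is the less certain of these counts. Hist1h1e, whose M21 model overlaps that of Hist1h2be on the same strand, was called the other way. The deposited gene spans of Hist1h2be (23583742 to 23621124) and Hist1h1e (23621755 to 23622502) do not overlap. The call of Hist1h2be was lost without aged anti-PD-1 library 3 (adjusted p = 0.0641) or young library 3 (0.0502). Hist1h2bn was no longer called without aged anti-PD-1 library 3 (0.0595), young library 2 (0.0506) or young library 3 (0.0661). For Hist2h2be the same held without aged anti-PD-1 library 1 (0.0733), young library 2 (0.0819) or young library 3 (0.0722). The fold changes in the fits without 1 library were 0.67 to 0.91 for Hist1h2be, 1.41 to 2.03 for Hist1h2bn and -0.68 to -0.52 for Hist2h2be, and these fits called 6.14 to 11.8% of all genes in place of 15.3%.

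All 5 tested H1 genes had a negative fold change in aged against young anti-PD-1 lungs, with a median of -1.22, and 1 was called. Hist1h1e had 3.57, 4.12 and 3.79 CPM in aged and 14.01, 12.6 and 5.69 CPM in young libraries, which do not overlap (-1.49 ± 0.37, adjusted p = 0.0186). Young library 3 was far below the other young libraries. The call was lost without aged anti-PD-1 library 1 (adjusted p = 0.0581) or 3 (0.0702) and without young library 1 (0.0650) or 2 (0.0682), with fold changes of -1.77 to -1.25 when any 1 library was left out. It was also lost with no filter on low counts (-1.49, adjusted p = 0.0758), where Hist1h1a was called in its place (-1.90, adjusted p = 0.0332). Hist1h1d showed the same young libraries on top, with 2.27, 1.51 and 1.45 CPM in aged and 5.20, 4.95 and 1.81 CPM in young libraries (-1.19 ± 0.41, adjusted p = 0.0662, and 0.0269 without young library 3). Hist1h1c had the young libraries in the opposite order: 296, 249 and 238 CPM in aged and 240.4, 325 and 454 CPM in young libraries, which overlap (adjusted p = 0.176, and 0.0308 without young library 1). Within the young group, then, the H1 genes did not vary together.

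**Figure D3:**
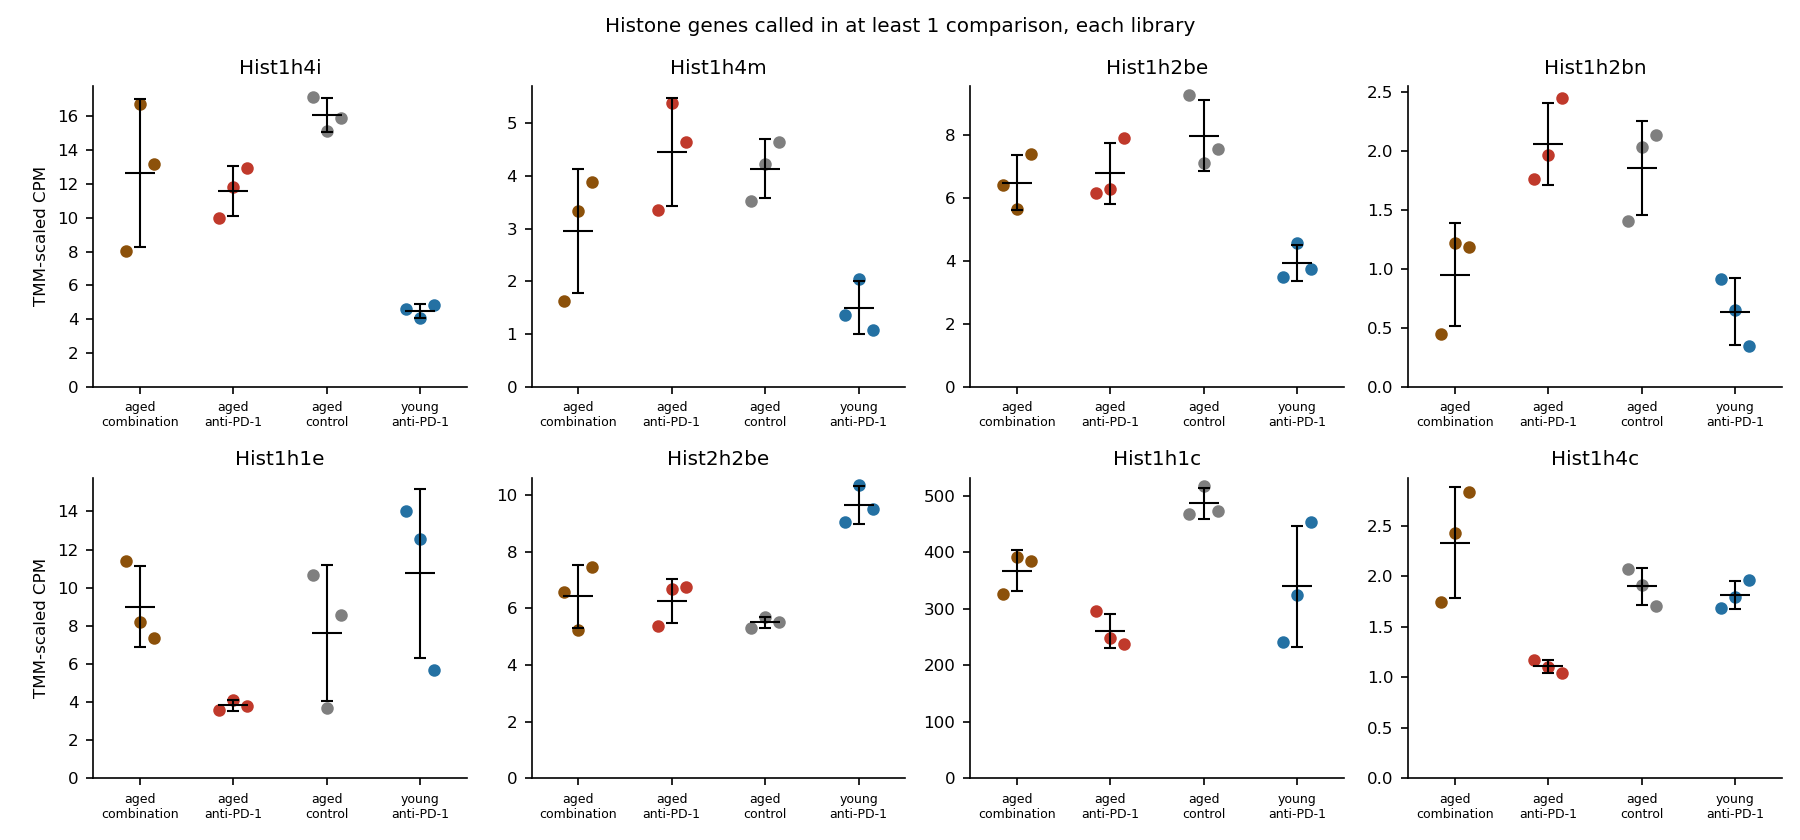
TMM-scaled CPM of the 8 histone genes called in at least 1 comparison; dots are libraries, and bars give the mean ± SD of 3 libraries. Hist1h4i, Hist1h4m, Hist1h2be and Hist1h2bn are higher in aged than in young anti-PD-1 libraries, Hist1h1c is lowest in the aged anti-PD-1 group among aged mice, and Hist1h4c is lowest in the aged anti-PD-1 libraries (1.05 to 1.18 CPM).

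The second comparison asks what anti-PD-1 did in aged mice. The abundant linker histone gene Hist1h1c was lower in aged anti-PD-1 than in aged control lungs, and no histone gene was called higher. This 1 of 34 genes is 2.94%, against 10.9% of all genes called (5.34% higher and 5.58% lower). Hist1h1c had 296, 249 and 238 CPM in aged anti-PD-1 and 468, 518 and 473 CPM in aged control libraries. The groups were far apart compared with the spread within them, and the fold change was -0.90 ± 0.18 (adjusted p = 0.0110). It stayed called when any 1 library was left out.

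Fold changes of the other histone genes were mostly negative without being called. Of the 34, 28 were negative, with a median of -0.43 against -0.016 over all genes. Groups did not overlap for 8 genes, all lower in aged anti-PD-1, or 23.5%. Of all genes tested 32.5% did not overlap, 16.4% lower and 16.1% higher. The other 4 tested H1 genes had fold changes of -0.86 to -1.64. Among the control libraries, all 4 were lowest in control library 2. Hist1h1e had 3.57, 4.12 and 3.79 CPM in aged anti-PD-1 and 10.6, 3.67 and 8.55 CPM in aged control libraries, which overlap through control library 2 (-0.998 ± 0.38, adjusted p = 0.102, and 0.0416 without that library). Hist1h2bc had 98.8, 105 and 105 against 175, 133 and 122 CPM (-0.48 ± 0.16, adjusted p = 0.0648). The H3 gene Hist2h3c2 had 0.924, 0.804 and 0.748 against 3.84, 1.41 and 0.962 CPM (-1.32 ± 0.44, adjusted p = 0.0692). Control library 3 was the lowest control library in both, and without it both were called (adjusted p = 0.0490 and 0.0309). Hist1h4i, high in aged against young lungs, had 9.996, 11.8 and 12.9 CPM against 17.1, 15.1 and 15.9 CPM here (-0.47 ± 0.20, adjusted p = 0.143).

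The third comparison asks what the added antibody against the IL-21 receptor did. The H4 gene Hist1h4c was higher in combination than in aged anti-PD-1 lungs, and no histone gene was called lower. This 1 of 34 is 2.94%, against 9.02% of all genes called (4.67% higher and 4.35% lower). Hist1h4c had 1.74, 2.43 and 2.84 CPM in combination and 1.18, 1.11 and 1.05 CPM in aged anti-PD-1 libraries, with a fold change of 1.06 ± 0.26 (adjusted p = 0.0239). The groups do not overlap, but combination libraries 2 and 3, which stood apart in rRNA, are also the highest here. The call was lost without any 1 of the aged anti-PD-1 libraries (adjusted p = 0.0656, 0.0683 and 0.0662 without 1, 2 and 3), without combination library 2 (0.0906) or 3 (0.0713), and without both of these (0.65, adjusted p = 0.460). The last fit has 1 combination library, assumed to vary like the other groups, and calls just 7 of 19660 genes (0.0356%), so it says little about Hist1h4c. The fits without 1 library called 1.37 to 7.60% of all genes, and the fold change of Hist1h4c in them was 0.90 to 1.24. Genes encoded by mitochondria also differed, with 119680 to 171970 CPM in combination and 73036 to 116550 CPM in aged anti-PD-1 libraries. Their part in this result was not tested.

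Fold changes were mostly positive: 26 of 34 genes, with a median of 0.25 against -0.0086 over all genes. Groups did not overlap for 12 genes (35.3%), 11 of them higher in combination (32.4%). Of all genes tested 32.2% did not overlap, 15.7% higher and 16.5% lower. All 5 H1 genes were positive, with a median of 1.23. Hist1h1e had 11.4, 8.19 and 7.39 CPM in combination against 3.57, 4.12 and 3.79 CPM in aged anti-PD-1 libraries (1.24 ± 0.38, adjusted p = 0.0580). Hist1h1d had 4.38, 3.07 and 4.88 against 2.27, 1.51 and 1.45 CPM (1.23 ± 0.41, adjusted p = 0.0770). Hist1h1c had 325, 391 and 384 against 296, 249 and 238 CPM (0.49 ± 0.18, adjusted p = 0.0998). In all 3 genes every combination library lay above every aged anti-PD-1 library, though none was called. Hist1h2bn went the other way, with 0.450, 1.22 and 1.19 against 1.76, 1.96 and 2.44 CPM (-1.12 ± 0.40, adjusted p = 0.0905). The same 3 aged anti-PD-1 libraries enter all 3 comparisons above, so a low level in them lowers the first and second and raises the third. With library totals in place of TMM factors, the median of all genes in this comparison moved to -0.21 and that of the histone genes to 0.064.

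In the fourth comparison, combination against aged control, the edgeR test called no histone gene and none of the 18556 genes, or 0%. At an unadjusted p under 0.05 there were 3 histone genes, 8.82% against 6.62% of all genes. DESeq2 called 0 histone genes and 76 genes in all, and limma-voom called none. Hist1h1c had 325, 391 and 384 CPM in combination and 468, 518 and 473 CPM in aged control libraries, without overlap (-0.41 ± 0.18, adjusted p = 0.741). Hist1h2bn had 0.450, 1.22 and 1.19 against 1.40, 2.03 and 2.14 CPM (-0.98 ± 0.40, adjusted p = 0.711). Groups did not overlap for 4 of the 34 genes (9.71% of all genes), 1 higher (3.92%) and 3 lower (5.78%). The median over the 34 genes was -0.072, against -0.0092 over all genes.

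**Figure D4:**
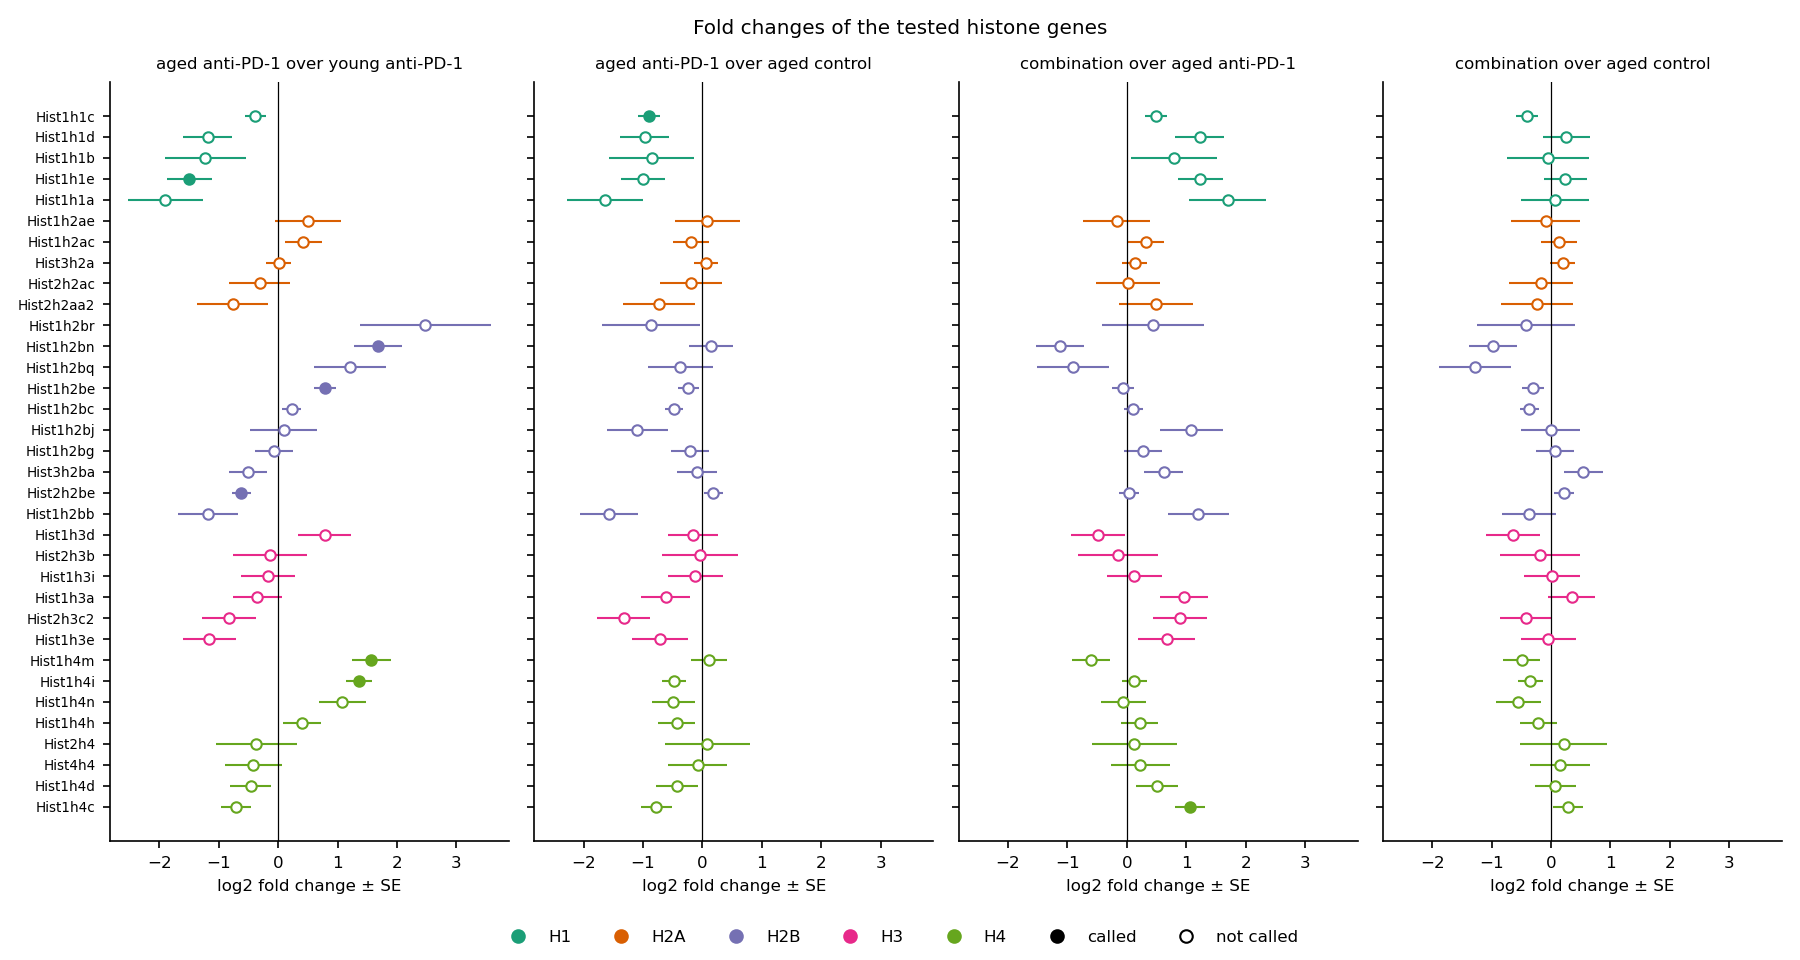
Log2 fold changes ± SE of the 34 tested histone genes in the 4 comparisons, coloured by type; filled dots are called genes. The 5 H1 genes are all negative for aged anti-PD-1 against young anti-PD-1 and against aged control, and all positive for combination against aged anti-PD-1.

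Among the H2A genes none was called in any comparison. Hist3h2a, the leading one, had 9.84, 11.7 and 8.31 CPM in combination, 7.31, 9.70 and 10.2 in aged anti-PD-1 libraries, 11.0, 7.05 and 7.96 in aged control and 7.03, 10.3 and 9.70 in young anti-PD-1 libraries. All 4 groups overlap. Its model runs into that of Trim17 on the same strand. Hist1h2ac (0.650 to 1.58 CPM) and Hist2h2aa2 (0.169 to 1.52 CPM) had low levels. The same holds for the H3 genes Hist1h3a (0.490 to 1.599 CPM) and Hist1h3i (0.339 to 1.35 CPM), and no H3 gene was called in any comparison. Hist1h4h, the second H4 gene by level per length, had 2.74 to 8.88 CPM over the 12 libraries and was not called in any comparison, with its highest value in aged control library 1.

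Most replication-independent histone variants are made throughout the cycle from polyadenylated mRNA, though this does not hold for every gene of the list used here. In these poly(A)-selected libraries their summed levels were 2398 to 3657 CPM for 12 genes, against 417 to 747 CPM for the 68 replication histone genes. The sums are not scaled by length, and most replication histone mRNA has no poly(A) tail, so they do not compare total mRNA. Of the 11 tested, 2 were lower in aged than in young anti-PD-1 lungs, 3 were lower in aged anti-PD-1 than in aged control lungs, and 1 was higher in combination than in aged anti-PD-1 lungs. The shares of all genes called in the same directions were 7.16%, 5.58% and 4.67%. The linker variant H1f0, known to accumulate in resting cells, averaged 149 ± 3.79 CPM in combination, 108 ± 8.40 in aged anti-PD-1, 149 ± 6.07 in aged control and 227 ± 38.8 in young anti-PD-1 libraries (SD, n = 3 each). Its fold change was -1.07 ± 0.12 for aged against young anti-PD-1 (adjusted p = 0.000311). It was -0.47 ± 0.12 for aged anti-PD-1 against control (adjusted p = 0.0246) and 0.47 ± 0.12 for combination against aged anti-PD-1 (adjusted p = 0.0260). H3f3b, which encodes the replacement histone H3.3, averaged 1388 ± 205 CPM in aged anti-PD-1 libraries, against 2142 ± 237 CPM in those of aged controls (-0.63 ± 0.15, adjusted p = 0.0205). Against 1933 ± 277 CPM in young anti-PD-1 libraries its fold change was -0.48 ± 0.15 (adjusted p = 0.0438). H1fx, another linker variant, averaged 4.74 ± 0.50 against 8.62 ± 1.79 CPM in control libraries (-0.86 ± 0.24, adjusted p = 0.0336).

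Few genes of the machinery around histone mRNA and of the cell cycle were called. Of 19 tested genes of histone mRNA 3′ end processing and turnover, none was called for aged against young anti-PD-1 and 2 were higher in aged anti-PD-1 than in aged control lungs. These were Npat, the coactivator of histone gene transcription, with 14.3 ± 0.82 against 9.71 ± 1.30 CPM (0.56 ± 0.16, adjusted p = 0.0378), and Cstf2, a cleavage factor subunit, with 29.0 ± 2.13 against 22.4 ± 1.97 CPM (0.37 ± 0.10, adjusted p = 0.0348). None of the 16 histone chaperone genes was called in any comparison. Of 29 S phase genes 1 was called in 1 comparison: the licensing factor gene Cdt1 was higher in combination (19.6 ± 3.68 CPM) than in aged anti-PD-1 lungs (12.2 ± 2.94 CPM; 0.69 ± 0.18, adjusted p = 0.0311). Of all genes tested, 9.02% were called in that comparison. Of 20 mitosis genes, only Top2a was called, and it was higher in aged anti-PD-1 (17.5 ± 3.29 CPM) than in aged control lungs (9.86 ± 3.28 CPM; 0.83 ± 0.20, adjusted p = 0.0231), where Hist1h1c was lower. The median log2 fold change of the 20 mitosis genes in that comparison was 0.55, opposite in sign to the -0.43 of the histone genes. For the 29 S phase genes the median was only 0.16 there, with none called. Of all genes, 10.9% were called in that comparison.

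Markers of blood cells differed between the groups in the same comparisons as the histone genes. The 10 platelet and megakaryocyte markers summed to 754 to 1284 CPM in combination, 1024 to 1121 in aged anti-PD-1, 1499 to 1959 in aged control and 193 to 384 in young anti-PD-1 libraries, and all 10 were called higher in aged than in young anti-PD-1 lungs. They were lowest in the young and highest in the aged control group. The H4 sum was also lowest in the young group, and its mean was highest in the aged control group. Its aged control libraries (30.3 to 37.7 CPM) overlapped the combination ones (19.3 to 34.0 CPM), unlike those of the platelet markers. Without Hist1h4i the H4 sum overlapped between young and combination libraries as well. Of 10 B cell markers 8 were called higher in the same comparison, with sums of 486 to 532 CPM in aged and 236 to 276 CPM in young anti-PD-1 libraries. So were 5 of 8 plasma cell markers (572 to 709 against 433 to 571 CPM), with 1 lower, and 4 of 10 T cell markers (81.5 to 190 against 74.1 to 96.3 CPM). The 10 neutrophil markers summed to 1587 to 2418 CPM in combination, 810 to 1059 in aged anti-PD-1, 1826 to 3304 in aged control and 582 to 890 in young anti-PD-1 libraries, and 4 of them were lower in aged anti-PD-1 than in aged control lungs, as Hist1h1c was. Also 4 were higher in combination than in aged anti-PD-1 lungs. Against aged control, 3 of 10 platelet markers were lower in aged anti-PD-1 lungs as well. In that comparison 4 of 10 B cell, 1 of 8 plasma cell and 1 of 10 lung epithelial and endothelial markers were higher. Of 9 erythroid markers, 5 were higher in combination than in aged anti-PD-1 lungs, with sums of 19034 to 46863 against 9969 to 13137 CPM. Lung epithelial and endothelial markers summed to 29491 to 34294 CPM in aged and 44739 to 57430 CPM in young anti-PD-1 libraries, and 6 of 10 were lower in the aged. No marker of these lists was at 0 in any library. Their part in the histone results was not tested.

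**Figure D5:**
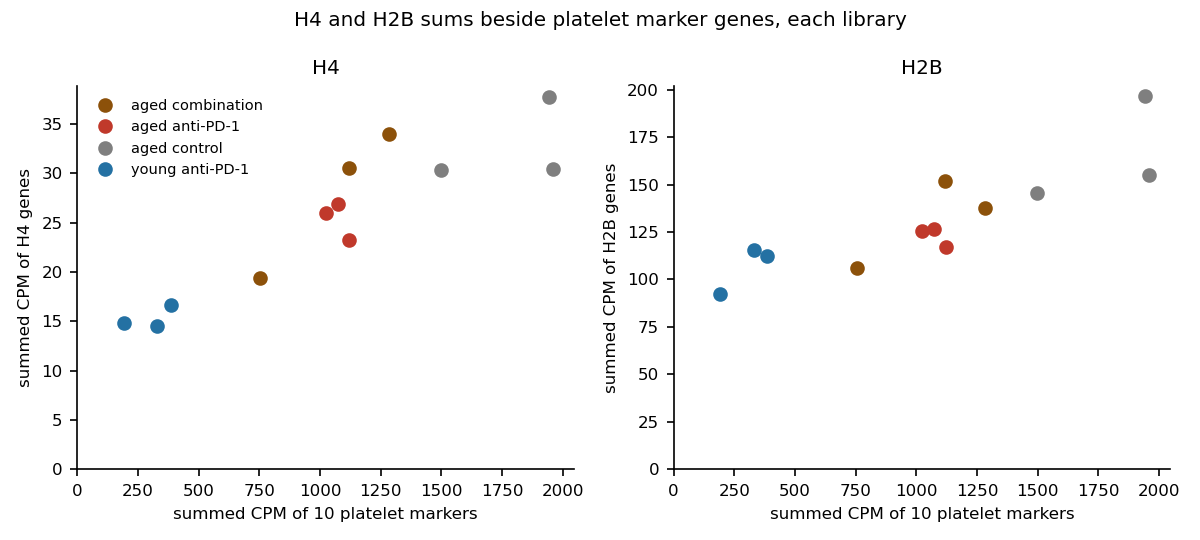
Summed CPM of the H4 genes (left) and H2B genes (right) against the summed CPM of 10 platelet and megakaryocyte markers; each dot is a library. The young anti-PD-1 libraries lie lowest on both axes for H4 (14.6 to 16.6 CPM of H4, 193 to 384 CPM of markers), and the aged control libraries lie farthest right (1499 to 1959 CPM of markers).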

How the data were processed

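The deposited table holds whole-number read counts for every gene, with a column for each library and no normalization, per the file headers. RNA was poly(A)-selected and made into directional libraries, per the labels' protocols. Tools named are bcl2fastq 1.8.4, Trimmomatic, HISAT2 and featureCounts 1.6.3 with mm10, per the submitters' processing notes; annotation release, strand setting and handling of reads with several matches are not given in the sources used here. Reads of a gene and of a partner on the other strand may therefore be mixed.

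Genes were kept by the filterByExpr function of edgeR by group (minimum count 10, minimum total 15), scaled by TMM, and fitted with 4 group means in 1 quasi-likelihood model with robust dispersion (edgeR 4.0.16, limma 3.58.1, R 4.3.3; 8 residual degrees of freedom, common biological coefficient of variation 0.156). Tests were two-sided. The SE is the absolute log2 fold change over the square root of F. An exact permutation test of 3 against 3 libraries cannot go below p = 0.1. The histone genes, the gene lists and the tests were chosen with earlier results of these data known. Named are all called histone genes, the 3 highest per type by CPM per kb, and, per comparison, up to 3 called genes of each related list with the largest fold change; where a list had none called, the rule names its 2 most abundant genes, which are not printed here. Marker lists are given as sums and counts. Exon models are from GENCODE M21, clipped to the deposited gene spans; 66 of 68 histone genes are in it and 45 have the same position. Promoters are from RefSeq (60 matched). The test was tried on simulated counts. Alternatives were RLE factors, library totals, TMM factors without immunoglobulin, haemoglobin and mitochondrial genes, other filters, DESeq2 1.42.0, limma-voom, a replicate block, leaving out libraries, and a fit to just the pair of groups in a comparison. Plots used matplotlib 3.10.9 under Python 3.11.15.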

Additional observations from a re-analysis of the deposited data

How the results depend on the processing

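Of 121 values of the called histone genes under an alternative, 100 stayed called in the same direction. Hist1h4i and Hist1h4m (aged against young anti-PD-1) and Hist1h1c (aged anti-PD-1 against aged control) were called under every alternative tried, with adjusted p of at most 0.0124, 0.0389 and 0.0454. For aged against young anti-PD-1, leaving out 1 library gave 2 to 4 genes higher and 0 to 3 lower, and DESeq2 gave 4 lower. Of all genes, the fits without 1 library called 6.14 to 11.8% and DESeq2 18.7%, against 15.3% in the main fit. For aged anti-PD-1 against aged control, 3 genes were lower with no filter on low counts, 4 with DESeq2, and 1 to 3 when 1 library was left out. The shares of all genes called were 5.87%, 17.9% and 3.21 to 10.5% in these settings, against 10.9% in the main fit. For combination against aged anti-PD-1, genes called higher numbered 0 with no filter, 3 with DESeq2, 3 in a fit of only the groups compared (which does not call Hist1h4c), 0 to 1 when 1 library was left out, and 0 without both combination libraries high in rRNA, an alternative chosen after seeing the data that leaves 1 combination library and calls 7 of 19660 genes, so that it says nothing about stability. Library totals alone and DESeq2 each gave 1 lower, Hist1h2bn. The cause was not tested. Of all genes, DESeq2 called 15.8% and library totals 16.4% in this comparison, against 9.02% in the main fit. The share was 5.08% with no filter, 8.09% with only the groups compared and 1.37 to 7.6% without 1 library. Library totals also moved the H2B sum to 131 CPM in aged anti-PD-1 (123 with TMM) and the H3 sum to 5.15 CPM in combination (5.57 with TMM). Among 1035 values of the named genes under an alternative, 43 changed sign, none of them called in either setting and none with a log2 fold change above 0.50 in size. Replicate numbers are not stated to pair libraries, and residuals of same-numbered libraries had a median correlation of -0.0120 over 18 pairs; with replicate number as a block the counts of calls were 4 higher and 2 lower, 0 and 1, 1 and 0, and 0 and 0 in the 4 comparisons. Low counts limit the histone genes: the filter removed 34 of 68, and with no filter 65 were tested.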
